A study of Mus musculus with 14 samples.

Results

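Ephrins and Eph receptors form a cell contact signalling system, and 10 of its genes were described here in LEPC cells, a mouse cell line. The 10 comprised 6 ephrin genes (Efna1, Efna3, Efna4, Efna5, Efnb1 and Efnb2) and 4 receptor genes (Epha1, Epha2, Epha4 and Ephb4), out of 22 ephrin and Eph genes looked up. They were listed by name, and the list was selected on measured values of these same libraries (which of them is not recorded), so their levels and ratios are a description and carry no test. LEPC cells of strain C57BL/6 at 3 passages were measured in 3 conditions, namely a control labelled scr, cells that overexpress miR-93-5p, and cells that overexpress a mutant form of it, here mutant. The vector, the mutated bases and the clones behind these conditions are not given in the sources used here. The 14 samples comprised 3 of RNA-seq, 3 of mRNA recovered together with the microRNA (the pulldown), and 8 from chromatin immunoprecipitation in scr and miR-93-5p cells, of which 2 inputs were not analysed here. The pulldown titles name a control miRNA, miR-93-5p and its mutation, without the mark of overexpression that RNA-seq and chromatin titles carry. For the pulldown, scr, miR-93-5p and mutant therefore name the microRNA of the title, and whether those cells overexpressed it is not stated there. Each assay and condition had 1 library, so every difference below is one between 2 libraries, with no replicate error and no p-value.

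Ephrins are membrane ligands: the A class is held by a lipid anchor and the B class spans the membrane and signals inward itself. Eph receptors are a large family of receptor tyrosine kinases, and binding between neighbouring cells drives repulsion, cell sorting and boundary formation, with signals running in both directions. In liver and its tumours, EphA2 and ephrin-A1 are known as a receptor and ligand pair of epithelial cells, and ephrin-B2 with EphB4 is known for the arterial and venous identity of vessels.

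A microRNA pairs with mRNAs mainly through its seed, bases 2 to 8, and lowers their level or translation. The mature sequence of the overexpressed microRNA is shown with that of miR-17-5p, the name giver of its family, because both carry the same seed (capitals). They come from RefSeq, build GRCm38.p6, where miR-93-5p lies on the minus strand of chr5:138165574-138165596 and miR-17-5p on the plus strand of chr14:115043684-115043706. Of 1738 mature mouse miRNAs, 7 share this seed. Seed sites in the mRNAs of the ephrins and receptors were not analysed here.
mmu-miR-93-5p: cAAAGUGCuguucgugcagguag
mmu-miR-17-5p: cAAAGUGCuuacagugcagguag

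The promoters of 3 of the genes are shown because their chromatin stood at the extremes described further on: Efna3 alone had a peak of H3K27me3, Epha2 had the widest peak of H3K4me3, and Epha1 had neither. Each is the RefSeq window from 250 bases before to 50 bases after the gene start on GRCm38.p6, written along the gene with each CG in capitals: Efna3 on the minus strand of chr3:89322890-89323189, Epha2 on the plus strand of chr4:141300971-141301270 and Epha1 on the minus strand of chr6:42373219-42373518.
Efna3: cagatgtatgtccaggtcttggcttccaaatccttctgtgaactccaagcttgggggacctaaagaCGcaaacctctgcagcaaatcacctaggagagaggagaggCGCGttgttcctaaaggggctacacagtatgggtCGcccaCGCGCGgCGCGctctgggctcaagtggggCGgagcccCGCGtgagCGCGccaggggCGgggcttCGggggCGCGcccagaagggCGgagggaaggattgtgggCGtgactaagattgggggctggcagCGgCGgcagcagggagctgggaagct
Epha2: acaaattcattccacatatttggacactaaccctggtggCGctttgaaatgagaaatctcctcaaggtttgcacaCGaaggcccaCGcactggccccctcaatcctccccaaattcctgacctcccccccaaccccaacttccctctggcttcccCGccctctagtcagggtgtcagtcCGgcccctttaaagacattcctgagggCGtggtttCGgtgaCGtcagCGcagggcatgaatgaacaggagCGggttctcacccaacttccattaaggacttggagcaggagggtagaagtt
Epha1: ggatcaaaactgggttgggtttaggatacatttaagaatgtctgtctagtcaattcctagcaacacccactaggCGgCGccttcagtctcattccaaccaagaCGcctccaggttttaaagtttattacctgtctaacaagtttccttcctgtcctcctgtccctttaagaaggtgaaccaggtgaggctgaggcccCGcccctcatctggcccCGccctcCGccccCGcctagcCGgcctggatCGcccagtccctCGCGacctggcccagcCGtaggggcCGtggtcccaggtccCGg

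The 10 promoter windows held between 10 (Epha2) and 38 (Efna5) CG pairs, with a median of 15.5 against 7 over 27025 mouse promoters. Efna5 with 38 and Efnb2 with 35 were the richest, followed by Efna3 with 22 and Efna1 with 20. Epha4 held 17, Efnb1, Epha1 and Ephb4 held 14 each, and Efna4 held 11. The letters GGGCGG, or CCGCCC on the other strand, known as the GC box, occurred in 8 of the 10 windows, all but Efna4 and Efnb1, against 35.9% of all promoters. The letters TATAAA, or TTTATA, occurred in Efnb2 alone, against 14.2% of all promoters. These matches describe letters and show no binding.

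The labels were checked against cell type markers in RNA-seq. Hepatocyte markers were measured for 6 of 10 genes, biliary and progenitor markers for 3 of 7, leukocyte markers for 1 of 5, mesenchymal markers for 1 of 6 and endothelial markers for 0 of 5. In the order scr, miR-93-5p, mutant, the hepatocyte factor Hnf4a stood at 40.6, 7.22 and 27.4 FPKM, and the keratin Krt8 at 658, 230 and 283. Krt18 stood at 306, 200 and 253, Apob at 29.1, 2.54 and 10.0, Cebpa at 15.3, 5.17 and 3.00, and Foxa3 at 4.21, 1.94 and 5.26. All 6 were lower in miR-93-5p than in scr, but Cebpa was lowest and Foxa3 highest in mutant. The 3 biliary and progenitor markers did not move alike either. Spp1 stood at 531, 1076 and 1077 FPKM, Cdh1 at 30.7, 1.52 and 3.87, and Sox9 at 8.22, 11.1 and 6.91. Vim, the one mesenchymal marker measured, stood at 1061, 711 and 784, and Csf1r, the one leukocyte marker measured, at 7.63, 1.16 and 1.82. Alb, Krt19, Pecam1, Ptprc and Col1a1 had no locus that passed the matching in all 3 RNA-seq libraries. Hepatocyte and progenitor markers, Vim and Csf1r thus differed between the libraries beside the ephrin genes, and their part in the results below was not tested. In RNA from many cells, fewer cells expressing a gene and less RNA per cell cannot be told apart.

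Values of RNA-seq and of the pulldown are FPKM, fragments scaled by transcript length and by library size, each with the lower and upper bound that the files give. The bounds cover the counting and assignment error of that library alone. An assembled locus was given to a gene where both overlapped each other best, over at least 0.5 of their joint length, and a gene was called measured if it had such a locus in all 3 libraries of an assay and a mean of at least 1 FPKM. RNA-seq measured 7 of the 10 genes (of 8423 protein-coding genes in all) and the pulldown 3 (of 5246). A fragment number was also derived from the width of the bounds, taken as counting error, and is called implied fragments. It summed to between 14589704 and 19513879 per RNA-seq library and between 3814082 and 5855469 per pulldown library. Assignment error widens the bounds too and so lowers this number. In RNA-seq, Rac1 stood at 217 FPKM in miR-93-5p and 212 in mutant, with 2004 and 18440 implied fragments. The assembled loci of the miR-93-5p pulldown were short: their median length was 2121 bp, and that of scr loci 9176 and of mutant loci 9086.

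Of the 4 ephrins measured in RNA-seq, all stood between 6.58 and 11.3 FPKM in the control, and Efnb1 stood lowest under miR-93-5p. In scr RNA-seq the order by FPKM was Ephb4, Epha2, Efna1, Efna4, Epha4, Efnb1 and Efnb2, in which the bounds overlapped between Efna1 and Efna4, Efna4 and Epha4, and Epha4 and Efnb1, and between no other neighbours. Ephb4 lay at the 70.0th and Efnb2 at the 21.6th percentile of the matched genes. In miR-93-5p the order was Epha2, Ephb4, Efna1, Efna4, Epha4, Efnb2 and Efnb1, with overlapping bounds between Epha4 and Efnb2 alone. In mutant it was Epha2, Ephb4, Efnb2, Efna1, Efnb1, Epha4 and Efna4, where the bounds of all neighbours but Efnb1 and Epha4 overlapped, those of Ephb4 because they are too wide to use.

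Among the A ephrins, Efna1, the main ligand of EphA2 (mm9 chromosome 3, 89075654 to 89085064), stood at 11.3 FPKM in scr (bounds 10.2 to 12.5), 13.2 in miR-93-5p (11.8 to 14.5) and 10.2 in mutant (9.27 to 11.1). Efna4, which binds EphA receptors and lies on the same chromosome (89137311 to 89141950), stood at 9.47 FPKM (8.40 to 10.5), 10.4 (9.28 to 11.6) and 7.27 (6.41 to 8.12). By FPKM both were highest in miR-93-5p and lowest in mutant. Their bounds overlapped between miR-93-5p and scr and stood apart between miR-93-5p and mutant. On the log2(FPKM + 1) scale miR-93-5p differed from scr by 0.20 for Efna1 and 0.13 for Efna4, and from mutant by 0.34 and 0.47. By implied fragments Efna1 differed by -0.13 from scr and -0.04 from mutant, the opposite direction, and Efna4 by 0.06 and 0.56.

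Among the B ephrins, Efnb1 (chromosome X, 96331468 to 96344330), a ligand of EphB receptors, stood at 8.57 FPKM in scr (7.85 to 9.29), 4.88 in miR-93-5p (4.40 to 5.35) and 9.80 in mutant (9.11 to 10.5). The miR-93-5p library was low and the other 2 overlapped. Its FPKM in miR-93-5p was 0.569 times that of scr and 0.498 times that of mutant, or -0.70 and -0.88 on the log2(FPKM + 1) scale. The implied fragments of Efnb1 gave -0.46 and -0.55, the same direction with a smaller size. Efnb2, the arterial ligand of EphB4 (chromosome 8, 8617433 to 8661239), ran the other way, with 6.58 FPKM in scr (6.05 to 7.11), 7.99 in miR-93-5p (7.49 to 8.49) and 11.1 in mutant (10.4 to 11.8). No 2 of its libraries overlapped, scr was low and mutant high, and log2(FPKM + 1) differences from scr were 0.25 in miR-93-5p and 0.68 in mutant. By implied fragments the Efnb2 differences from scr were 0.68 in miR-93-5p and 0.41 in mutant, so scr stayed lowest but the order of the other 2 turned.

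The receptor Epha2, known for its ligand-independent role in carcinoma cells, was the sole gene of the 7 to reach 2-fold on the log2(FPKM + 1) scale, in mutant against scr. Epha2 (chromosome 4, 140857154 to 140885299) stood at 21.3 FPKM in scr (20.4 to 22.2), 33.4 in miR-93-5p (32.2 to 34.5) and 43.6 in mutant (41.5 to 45.7). All 3 libraries stood apart, with scr low and both microRNA libraries high. In FPKM miR-93-5p stood 1.57-fold and mutant 2.05-fold above scr, which is 0.63 and 1.00 on the log2(FPKM + 1) scale. With the libraries rescaled to a median ratio of 1, the mutant value was 0.99, just under the limit. By implied fragments miR-93-5p stood 0.64 above scr on the log2 scale, close to the FPKM value. Mutant stood at -0.81, the opposite direction, so these measures disagree on the mutant library. Implied fragments fall as bounds widen, and the mutant bounds were the widest of the 3, over loci of 28104, 28193 and 28130 bp. How far bound width accounts for the -0.81 was not tested.

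Epha4, a receptor that binds ephrins of both classes (chromosome 1, 77363759 to 77511663), was nearly level by FPKM, with 9.19 in scr (8.73 to 9.65), 8.49 in miR-93-5p (7.92 to 9.05) and 7.60 in mutant (7.25 to 7.95). The bounds of scr and mutant stood apart and those of miR-93-5p overlapped both. Its log2 difference of miR-93-5p from scr was -0.10 by FPKM and -0.88 by implied fragments. Ephb4, the venous receptor of ephrin-B2 (chromosome 5, 137791336 to 137819897), stood at 28.4 FPKM in scr (26.8 to 30.0), 30.1 in miR-93-5p (28.5 to 31.6) and 39.0 in mutant. The bounds of scr and miR-93-5p overlapped. The bounds of the mutant value run from 0 to 230546 FPKM, so that value has no usable error.

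**Figure D1:**
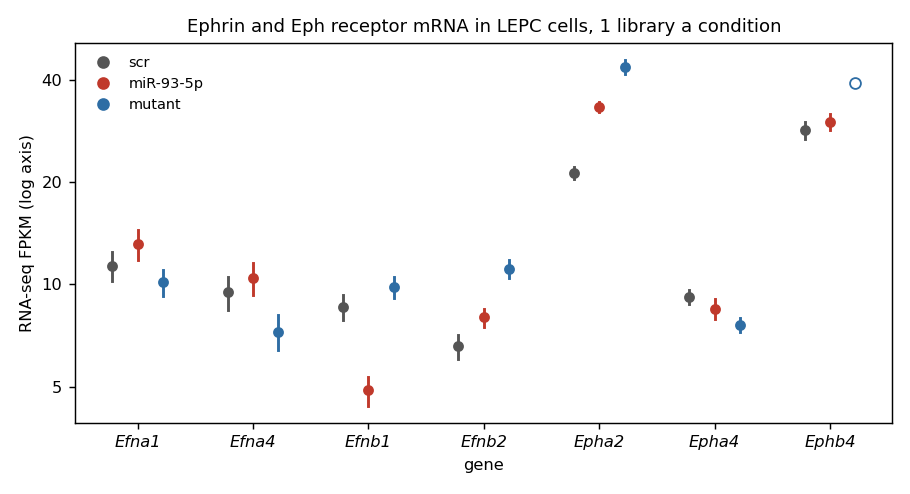
RNA-seq FPKM (log axis) of the 7 measured genes in scr (grey), miR-93-5p (red) and mutant (blue), 1 library each, with the deposited bounds as vertical lines. Efnb1 is lowest in miR-93-5p at 4.88, Epha2 is at 21.3, 33.4 and 43.6, and the open point of Ephb4 in mutant has no usable bounds.

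Counted over the 7 genes on the log2(FPKM + 1) scale, 0 were at least 2-fold apart between miR-93-5p and scr, where 6.83% of all measured genes were. Between miR-93-5p and mutant the count was 0 against 3.62%, with Efnb1 just past 2-fold in FPKM alone, and between mutant and scr it was 1, Epha2, against 6.27%. The bounds stood apart for 3 of 7 between miR-93-5p and scr (63.9% of all genes), 5 of 7 between miR-93-5p and mutant (48.0%) and 4 of 7 between mutant and scr (64.1%). As the genes were chosen with these values known, nothing is read from these shares. The genes' median log2 ratio was 0.13 in the first comparison, -0.37 in the second and 0.17 in the third, against 0.03, 0.01 and 0.01 over all genes. The -0.37 is the ratio of Ephb4 itself, whose mutant value has no usable error. By implied fragments, over 6 of the genes without Ephb4, the medians were -0.04, 0.11 and -0.13. Each was of the opposite sign, but the sets of genes differ. The comparisons share libraries and are not independent.

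The other 3 genes were barely seen or not seen in RNA-seq. Efna3, a further A ephrin (chromosome 3, 89117820 to 89126887), had a partial locus in scr at 0.956 FPKM (0.505 to 1.41) covering 17.6% of the gene, and no assembled locus in miR-93-5p or mutant. That locus also overlaps the RNA gene Gm15998 (89119360 to 89122829), and without strand the 2 genes cannot be told apart there. Epha1, an epithelial EphA receptor (chromosome 6, 42308485 to 42323267), had no assembled locus in any RNA-seq library. Efna5, an A ephrin best known from nerve guidance, was not placed on mm9 and its RNA-seq was not analysed here.

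In the pulldown, Efna1, Efna4 and Epha2 were measured by FPKM, and none was 2-fold apart in any comparison. Efna1 stood at 17.4 FPKM in scr (15.2 to 19.6), 15.2 in miR-93-5p (13.2 to 17.3) and 29.3 in mutant (26.7 to 32.0), with mutant high and the other 2 overlapping. Efna4 stood at 16.3 FPKM (14.1 to 18.6), 12.2 (10.5 to 13.9) and 11.6 (10.0 to 13.2), with scr high. Epha2 stood at 8.21 FPKM (7.36 to 9.06), 7.40 (6.41 to 8.39) and 8.80 (8.05 to 9.55), and all 3 bounds overlapped each other. By FPKM Efna1, a ligand, stood above its receptor Epha2 in each pulldown library, while in each RNA-seq library it stood below. The order in the pulldown rests on the measure, because the summed fragments given further on put Efna1 below Epha2 in each library.

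The counts at 2-fold were 0 of 3 in miR-93-5p against scr, where 45.3% of all pulldown genes passed, 0 of 3 against mutant (31.4%) and 0 of 3 for mutant against scr (44.7%). The bounds stood apart for 1 of 3 (74.8% of all genes), 1 of 3 (67.5%) and 2 of 3 (78.2%). The medians were -0.18, -0.22 and 0.09, against -0.48, -0.43 and -0.06 over all pulldown genes. With the FPKM rescaled to a median ratio of 1, the first 2 medians were 0.30 and 0.20, so their sign rests on the scaling.

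For the remaining genes the pulldown loci covered different pieces of the gene in each library, so their FPKM are not alike in length. Implied fragments were therefore summed over all loci that lay longest on a gene and given per 1000000 implied fragments of the library (FPM). This measure was added after the data were seen. Its exact Poisson intervals of 95% cover counting error only and leave out the error of deriving fragments from the bounds. Pulldown Spp1 stood at 684 FPKM in scr and 3752 in mutant, with 1684 and 86006 implied fragments. Overlap or its absence below refers to these intervals alone. It could be given for 9 of the 10 genes. The pulldown locus that touched Epha1 in scr shared 2.42% of that gene and lay mainly on a neighbour, so Epha1 had none of its own.

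Of the genes with pulldown loci in all 3 libraries, Ephb4 had the widest spread on this measure. It had 82.4 FPM in the scr pulldown (74.9 to 90.6), 8.56 in miR-93-5p (5.96 to 12.2) and 30.5 in mutant (26.3 to 35.4), so scr was 9.62-fold above miR-93-5p and mutant 3.56-fold above it. The assembled locus reached 99.8% of the gene in scr and 98.4% in mutant, but in miR-93-5p it was a stretch of 3619 bp, 14.8% of the gene, at its 3' end. In RNA-seq the same receptor stood at 28.4 and 30.1 FPKM in scr and miR-93-5p.

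Epha4 ran in the other direction against scr. It had 13.3 FPM in scr (10.4 to 16.8), 67.0 in miR-93-5p (58.9 to 75.6) and 71.2 in mutant (64.5 to 78.4). The scr library was thus low, and miR-93-5p and mutant overlapped. The miR-93-5p fragments came from 1 locus of 5894 bp at the 3' end, 3.98% of the gene, at 7.84 FPKM (6.86 to 8.82). The mutant locus reached over the whole gene at 3.78 FPKM (3.41 to 4.15), and scr had 4 separate pieces between 0.940 and 2.92 FPKM. In RNA-seq Epha4 stood at 9.19, 8.49 and 7.60 FPKM, where miR-93-5p lay between the others and its bounds overlapped both. The summed measure for Epha4 there was 110, 58.9 and 96.4 FPM, with miR-93-5p low, so these measures disagree.

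Both B ephrins were highest in the scr pulldown. Efnb1 had 26.8 FPM in scr (22.6 to 31.7), 5.97 in miR-93-5p (3.82 to 9.05) and 13.2 in mutant (10.4 to 16.4), with no overlap between any 2 libraries. Its miR-93-5p value came from 1 locus of 1127 bp near the 3' end, and its main scr locus ran 25358 bp, past the gene. Efnb2 had 43.3 (37.8 to 49.2), 31.8 (26.3 to 37.9) and 32.6 (28.2 to 37.6), with miR-93-5p overlapping mutant and just reaching scr. Its miR-93-5p locus was again a piece, 2716 bp and 6.17% of the gene, beside loci over 99.4% in scr and 99.3% in mutant.

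Of the A ephrins and their receptor, Efna1 had 47.6 FPM in scr, 56.0 with miR-93-5p and 85.2 with mutant, and Efna4 had 40.1, 54.5 and 37.7. Epha2 had 70.3, 58.4 and 94.1, above Efna1 in each library, whereas by FPKM it stood below. The intervals of Efna1 and Epha2 overlapped in miR-93-5p and in mutant. On this measure miR-93-5p stood above scr for both ephrins, whereas by FPKM it stood below. In RNA-seq the summed measure was 28.7, 25.8 and 26.5 FPM for Efna1, and for Efna4 it was 27.4 in scr and 17.5 in mutant with miR-93-5p between them, whereas by FPKM miR-93-5p was highest. Efna3 had 4.62 (3.04 to 6.93) in scr and 7.19 (4.67 to 10.3) in miR-93-5p, which overlap, and Efna5 had 14.6 (11.6 to 18.3) and 6.21 (4.03 to 9.36), which do not. The Efna3 pulldown loci were not checked against Gm15998, named above, so RNA of that gene may be part of the Efna3 values. Neither Efna3 nor Efna5 had an assembled locus in the mutant pulldown.

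Of the 8 genes with a mean of at least 5 FPM, with 1 FPM added, 4 were at least 2-fold apart between miR-93-5p and scr: Epha4 higher, and Ephb4, Efnb1 and Efna5 lower. Over all 9582 genes that passed the same filter the share was 50.3%. Between miR-93-5p and mutant it was 3 of 8 against 39.3%, and between mutant and scr 3 of 8 against 48.4%. The genes' counts lay near these shares, and the medians of -0.35, -0.34 and -0.24 lay beside -0.17, -0.05 and -0.14 over all genes.

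**Figure D2:**
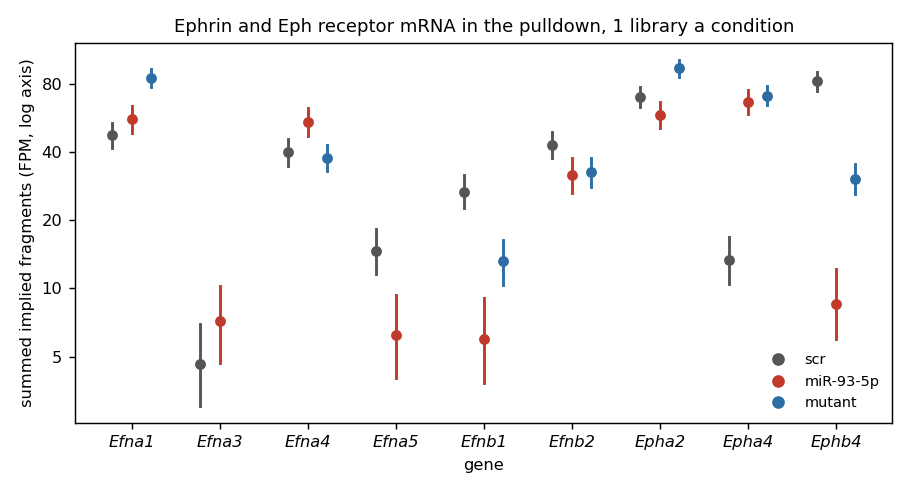
Summed implied fragments in FPM (log axis) of 9 genes in the 3 pulldown libraries, with exact Poisson intervals of 95% as vertical lines. The intervals leave out the error of deriving fragments from the FPKM bounds. Epha4 is low in scr at 13.3 and Ephb4 is low in miR-93-5p at 8.56, and a missing point means no assembled locus.

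The histone marks were compared through the deposited peak lists of scr and miR-93-5p cells. H3K4me3 marks active or poised promoters, H3K27me3 is the mark of Polycomb repression, and H3K9me3 is a mark of heterochromatin. A gene counted as marked where a peak overlapped its mm9 locus by at least 1 bp, which could be read for 9 of the 10 genes (18493 genes in all). Peak scores are the authors' own and were used within a list only. Many peaks share a score of 3100 (59.8% of H3K4me3 peaks in scr and 54.7% in miR-93-5p).

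H3K4me3 lay over 8 of the 9 genes in both conditions, against 56.3% of all genes in scr and 56.6% in miR-93-5p, and each of the 8 had a peak across its start. Epha1 was the exception, with its nearest H3K4me3 peak 20.9 kb from its start in scr and 21.0 kb in miR-93-5p. The score was 3100 at 7 of the 8. Efna3 was the other one, with 144.93 and 144.14 for 2 abutting peaks at its start in scr and 729.01 for 1 peak there in miR-93-5p.

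Epha2 carried one of the widest H3K4me3 domains of these cells. Its start peak spanned 12672 bp in scr, from -582 to 12090 bp of the start, and 12979 bp in miR-93-5p, and it ranked 4 among the start peaks of 7621 and 7567 genes. Epha4 came next with 6753 bp in scr (rank 119) and 8138 bp in miR-93-5p (rank 58). The start peaks of Efna1 (5304 and 5846 bp), Efnb2 (5021 and 4668), Ephb4 (4875 and 4761) and Efnb1 (4751 and 4670) were also above the median of 2835 bp in scr and 2961 bp in miR-93-5p. Efna4 lay just below it, with 2621 and 2786 bp.

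Efna3 was narrowest, with 1502 bp in scr and 2720 bp in miR-93-5p. Together with the abutting peak of 1226 bp, the scr mark ran from -291 to 2440 bp of the start, against -211 to 2509 bp in miR-93-5p, so the marked stretch was nearly the same. A further H3K4me3 peak of 1996 bp in scr and 1625 bp in miR-93-5p lay inside Efna3, between 6.31 and 8.31 kb from its start in scr. In both conditions that peak also overlapped the RNA gene Gm15998.

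H3K27me3 lay over Efna3 alone of the 9 genes in scr and over none in miR-93-5p, against 20.4% and 19.0% of all genes. The scr peak spanned 6358 bp, from -1743 to 4615 bp of the start of Efna3, and its score of 1544.33 stood at the 99.98th percentile of that list. In miR-93-5p the H3K27me3 peak nearest to the start of Efna3 lay 11.6 kb away. Efna3 thus carried H3K4me3 and H3K27me3 together in scr, as 5.45% of all genes did (4.82% in miR-93-5p), and H3K4me3 alone in miR-93-5p. A loss of H3K27me3 from scr to miR-93-5p occurred at 5.07% of all genes. Of the 3764 genes with the mark in scr, 937 (24.9%) had none in miR-93-5p, and of the 1008 with both marks 297 (29.5%) had none.

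The 2 H3K27me3 lists differed as wholes, which moves with this result and whose part in it was not tested. The median peak was 1049 bp wide in scr and 473 bp in miR-93-5p, and the peaks covered 60.0 and 23.7 Mb. Within 2000 bp of a start, a second gene, Epha1, came in: a peak of 2530 bp ended 1198 bp before its start in scr, and one of 440 bp ended 1371 bp before it in miR-93-5p. Epha1 was the receptor without H3K4me3 and without an RNA-seq locus.

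**Figure D3:**
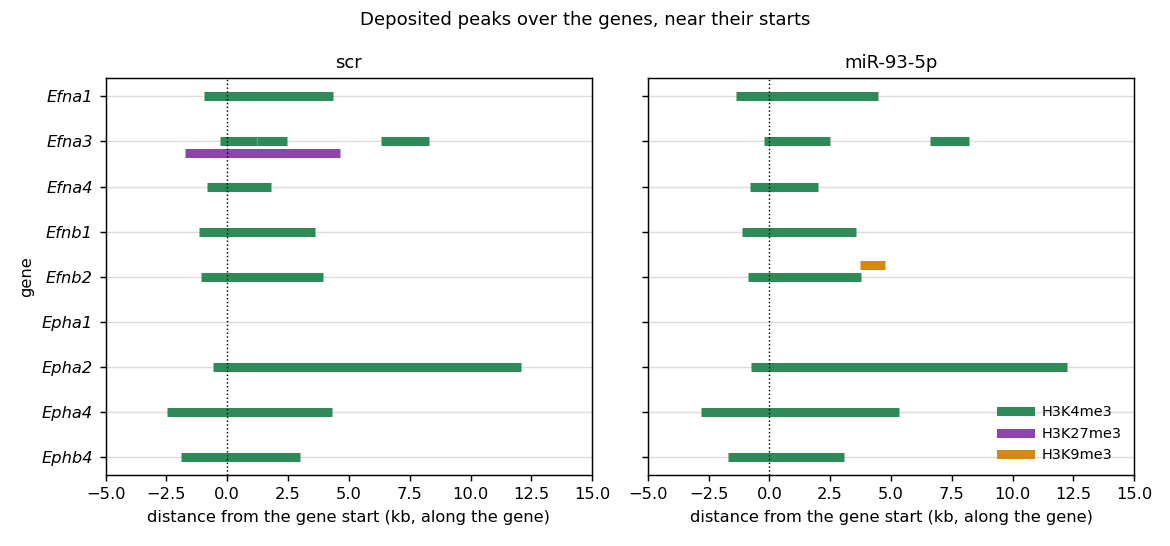
Deposited peaks of H3K4me3 (green), H3K27me3 (purple) and H3K9me3 (orange) over 9 genes, drawn by distance from the gene start in kb along the gene, in scr (left) and miR-93-5p (right). H3K27me3 lies over the start of Efna3 in scr and is not listed there in miR-93-5p, and the Epha2 domain of H3K4me3 spans 12672 and 12979 bp.

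Efna1, Efna3 and Efna4 lie side by side on mm9 chromosome 3, within 66.3 kb and all on the minus strand, and so share a neighbourhood. In scr the 3 genes and the space between them held 9 H3K27me3 peaks, of which the one at Efna3 and one of 4146 bp, 28.4 to 32.6 kb from the start of Efna1, were the widest. In miR-93-5p there were 4, between 456 and 695 bp wide. Efna1 and Efna4 had no H3K27me3 peak over them in either condition. Their RNA-seq FPKM of 11.3 and 9.47 in scr stood beside 0.956 for the partial locus of Efna3, which also overlaps Gm15998. In miR-93-5p Efna1 and Efna4 stood at 13.2 and 10.4, and Efna3, without an H3K27me3 peak there, had no assembled RNA-seq locus. A link between the mark and these levels was not tested. The nearest H3K27me3 peak to the start of Efna1 was 3.75 kb upstream in scr and 2.62 kb upstream in miR-93-5p.

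**Figure D4:**
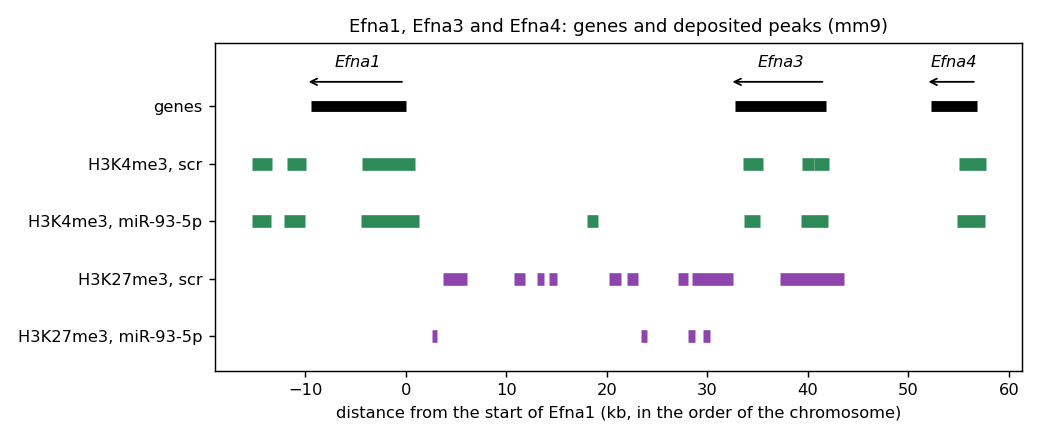
Efna1, Efna3 and Efna4 (black, arrows along transcription) with deposited H3K4me3 and H3K27me3 peaks of scr and miR-93-5p, by distance from the start of Efna1 in kb. H3K4me3 stands over the 3 starts in both conditions, and 9 H3K27me3 peaks in scr face 4 in miR-93-5p.

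H3K9me3 lay over none of the 9 genes in scr and over Efnb2 alone in miR-93-5p, against 15.4% and 20.2% of all genes. A gain of this kind occurred at 7.21% of all genes. Efnb2 had a peak of 998 bp with a score of 70.51, 34.4 kb into the gene, and one of 1031 bp with a score of 54.44, between 3.74 and 4.77 kb from its start. Both scores were low in a list that starts at 50, and the list held 25879 peaks in miR-93-5p against 15888 in scr. The RNA-seq FPKM of Efnb2 was 6.58 in scr and 7.99 in miR-93-5p.

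Of the 12 other ephrin and Eph genes, 2 were measured in RNA-seq and 0 in the pulldown. Ephb6, a receptor whose kinase is inactive, stood at 4.25 FPKM in scr (3.78 to 4.71), 12.3 in miR-93-5p and 4.78 in mutant (4.36 to 5.20). It was the one family gene at least 2-fold above both, as 0.665% of all genes were, but its miR-93-5p bounds run from 0 to 295731 FPKM, so this value too has no usable error. Epha7, a receptor best known from the nervous system, stood at 6.85 FPKM (5.89 to 7.80), 4.35 (4.02 to 4.68) and 4.34 (3.94 to 4.73), with scr high. In the summed measure Epha7 had 43.5, 45.9 and 33.9 FPM, with its scr fragments in 3 loci, and scr was then not above miR-93-5p.

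Signalling partners of the receptors and ligands, such as proteases, adaptors and phosphatases, were measured for 41 of 53 genes in RNA-seq. None was at least 2-fold above scr and mutant in miR-93-5p cells, and 2 were lower, where 0.879% of all genes were. The first was Ptpn13, a phosphatase that binds B ephrins, at 6.49 FPKM in scr (6.09 to 6.89), 1.53 in miR-93-5p (1.35 to 1.70) and 8.74 in mutant (8.30 to 9.17). Ptpn13 was low in miR-93-5p without overlap, by -1.57 against scr and -1.95 against mutant on the log2(FPKM + 1) scale, and by -1.80 and -2.02 in implied fragments. The second was Arhgef16, a guanine nucleotide exchange factor that binds EphA2, at 20.6, 7.96 and 18.0 FPKM, with bounds of 1.64 to 14.3 in miR-93-5p and 3.74 to 32.3 in mutant that overlap. Its implied fragments put miR-93-5p 0.13 above mutant on the log2 scale.

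Against scr alone, 1 partner was at least 2-fold higher in miR-93-5p, as 2.97% of all genes were, and 3 were lower, as 3.86% were. The higher one was Gja1, the gap junction protein connexin 43, at 2.78 FPKM in scr (2.39 to 3.16), 10.7 in miR-93-5p (10.0 to 11.4) and 5.91 in mutant (5.46 to 6.36). The third lower one was Cdh1, E-cadherin, at 30.7 FPKM (29.1 to 32.3), 1.52 (1.29 to 1.74) and 3.87 (3.52 to 4.22). Cdh1 was high in scr alone and low in both microRNA libraries, and it is also in the biliary and progenitor list of the check above. The next by size were Rhoa, the GTPase of the repulsive response, with a log2 ratio over scr of 0.91, and Rasa1, a Ras GTPase activator bound by EphB receptors, with 0.74. The partners' median ratio over scr was 0.15, beside 0.13 for the 7 ephrin and receptor genes.

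In the pulldown 13 partners were measured. None was at least 2-fold above scr and mutant in the miR-93-5p pulldown, where 1.64% of all pulldown genes were. Lower were 2, Rhoa and the adaptor Grb7, where 11.9% of all pulldown genes were. Rhoa stood at 88.3 FPKM in scr (83.1 to 93.4), 18.0 in miR-93-5p (16.0 to 19.9) and 38.5 in mutant (35.7 to 41.3), and Grb7 at 35.4 (33.0 to 37.9), 6.34 (5.28 to 7.39) and 14.1 (12.8 to 15.5). By FPKM scr was high and miR-93-5p low without overlap for both genes. By implied fragments miR-93-5p stood at -0.31 (Rhoa) and -0.76 (Grb7) against mutant on the log2 scale, no longer 2-fold, and at -1.14 and -1.83 against scr. By FPKM the partners' median ratio of miR-93-5p over scr was -1.03, beside -0.18 for Efna1, Efna4 and Epha2 and -0.48 over all genes. By implied fragments some partners changed sign, and their middle value was -0.36, that of Rac1. On that measure Efna1, Efna4 and Epha2 had a median of 0.36 and all genes 0.00.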

How the data were processed

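Members and lists were chosen with earlier results of these data known. The authors deposited FPKM values with bounds for each locus assembled in each library, and peak lists with a score for each peak, per the file headers and values. TopHat2, Cufflinks, Cuffdiff, CASAVA 1.4, Bowtie and MACS, and build mm9, are named per the submitters' processing notes, without settings. Pulldown loci nevertheless followed GRCm38 gene ends and were named through the RefSeq gene table of GRCm38.p6. For RNA-seq loci and peaks, names came from 35640 mm9 gene rows that the pulldown files list at 0 FPKM, with 18493 protein-coding symbols.

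Loci and genes were matched at 0.5 of their joint length and compared as log2(FPKM + 1). Implied fragments (scaled to a median ratio of 1, with 10 added) and summed fragments per 1000000 (FPM, 1 added) are second measures. Loci under 40 implied fragments came within 0.1 of whole numbers in 55.2% to 60.2% of cases, by library, and the rest did not. This share does not cover larger loci, which most of the measured ephrin and receptor genes had. The text names the 10 genes, and partner and family genes at least 2-fold apart from both other libraries. It also names up to 6 others by ratio over scr and the 8 markers set for the check. Spp1, Sox9, Vim, Csf1r, Rac1, Krt18, Apob, Cebpa and Foxa3 are named beside these. The matching was run on simulated data, in which each gene had a locus near its full length and bounds set by counting error alone. Split or partial loci and assignment error were not simulated. Python 3.11.15, pandas 2.3.3, numpy 2.4.6 and matplotlib 3.10.9 were used.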

Additional observations from a re-analysis of the deposited data

How the results depend on the processing

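With a pseudocount of 0.1, no filter on low values or an overlap of at least 0.9, no count of the FPKM comparisons moved by over 1.5 times and no median by more than its error. By implied fragments, the RNA-seq medians were -0.036 (miR-93-5p against scr), 0.11 (miR-93-5p against mutant) and -0.13 (mutant against scr), 1 gene was 2-fold apart between miR-93-5p and mutant and 0 between mutant and scr, and Epha2 reversed to -0.81 in mutant against scr. The pulldown medians were 0.36 against scr and 0.34 for mutant against scr. With FPKM rescaled to a median ratio of 1, 0 genes were 2-fold apart in RNA-seq between mutant and scr, and the pulldown medians were 0.30 against scr and 0.20 against mutant. With the locus of longest overlap, 2 pulldown genes were 2-fold apart against scr and 3 between mutant and scr, with medians of 0.073 against mutant and -0.42 for mutant against scr. Summed fragments, added after the data were seen, gave 1 and 0 RNA-seq genes (miR-93-5p against mutant, mutant against scr) and 4, 3 and 3 pulldown genes. Within 2000 bp of the start, H3K27me3 marked 2 genes in scr and 1 in miR-93-5p. H3K9me3 marked 0 in miR-93-5p within that window, at a score of at least 100, or with 10% of the gene covered. For these the cause was not tested, except that the longest overlap and the sums take in genes that FPKM matching leaves out. No paired analysis was possible because each group had 1 library. Depth limits Efna3, with 17.9 implied fragments in scr RNA-seq.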
